A study of Homo sapiens with 6 samples.

Results

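The Notch genes described here are 10 of the 28395 genes listed in an RNA-seq table of HCC827 cells, chosen by symbol as receptors (NOTCH1, NOTCH2, NOTCH3), ligands (JAG1, JAG2, DLL1) and transcriptional targets (HES1, HES4, HEY1, NRARP). HCC827 is an established human lung adenocarcinoma line whose growth depends on a mutant, constantly active EGFR, the receptor that erlotinib inhibits. Cells were given the vehicle DMSO (3 libraries, DMSO1 to DMSO3) or 1 μM erlotinib (3 libraries, Erlo4 to Erlo6), and RNA was taken after 24 h. All libraries come from this 1 cell line and share the same medium, which held serum, antibiotics and the anti-mycoplasma agent plasmocin. The labels do not say whether the libraries of a condition came from separate cultures, so p-values measure the spread between these libraries, which may be technical. Values are given as signal, the reads of a gene divided by 1 size factor per library, and the libraries held 20760204 to 24641819 reads on genes. The label of the cells held in the data, since epithelial genes were abundant in every library (EPCAM at a mean signal of 9852 in DMSO, CDH1 at 27824), as was EGFR (79645).

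Notch receptors are membrane proteins that are activated by ligands of the Jagged and Delta-like families on a neighbouring cell. Binding lets ADAM proteases and then γ-secretase cut the receptor, and the freed intracellular domain joins the DNA-binding protein RBPJ and a Mastermind-like coactivator to switch on target genes, among them the HES and HEY repressors and the feedback inhibitor NRARP. In the airway, Notch signalling is known for directing progenitors toward secretory and away from ciliated cells.

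HES1 and HES4 encode repressors of the basic helix-loop-helix family. Their promoters are shown because, among the targets with a promoter window, these hold the letters that RBPJ is known to bind. HEY1 and DLL1 had no window and were not searched. HES1 was lower with erlotinib, and the lower call of HES4 depended on the libraries and settings used. Each window has 250 bases before and 50 bases from the start site of the gene, read 5′ to 3′ on the strand of the gene from the RefSeq table of GRCh38.p14 (HES1 at chr3:194135898-194136197 on the plus strand, HES4 at chr1:1000048-1000347 on the minus strand). Capitals mark TGGGAA.
HES1: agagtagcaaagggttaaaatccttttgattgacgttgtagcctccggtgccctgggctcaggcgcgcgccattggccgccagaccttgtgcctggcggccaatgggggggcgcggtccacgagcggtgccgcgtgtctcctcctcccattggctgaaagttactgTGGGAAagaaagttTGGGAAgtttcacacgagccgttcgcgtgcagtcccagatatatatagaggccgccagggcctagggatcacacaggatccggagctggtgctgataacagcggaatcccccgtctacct
HES4: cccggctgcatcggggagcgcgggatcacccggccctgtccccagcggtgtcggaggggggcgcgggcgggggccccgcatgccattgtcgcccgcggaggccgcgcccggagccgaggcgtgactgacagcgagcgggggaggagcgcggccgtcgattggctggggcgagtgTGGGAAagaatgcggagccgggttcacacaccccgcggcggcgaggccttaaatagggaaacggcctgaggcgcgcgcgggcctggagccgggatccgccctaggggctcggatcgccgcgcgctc
In HES1 the letters begin 84 and 70 bases upstream of the start site, and in HES4 they begin 76 bases upstream, in both genes on the strand of the gene. The longer run TGTGGGAA, which contains TGGGAA, begins 86 bases upstream in HES1 and 78 bases upstream in HES4. On either strand, TGGGAA (or TTCCCA) was in 24% of all 35116 promoters of this length, and TGTGGGAA (or TTCCCACA) in 1.71%. Of the 8 Notch members with a promoter in the table, 2 held either run, HES1 and HES4, so that the windows of NOTCH1, NOTCH2, NOTCH3, JAG1, JAG2 and NRARP do not contain these letters. A match of letters is a description and not a bound site.

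Of the 9 Notch genes with enough signal to test, 5 were lower with erlotinib (NOTCH2, JAG2, HES1, HES4 and NRARP) and 3 were higher (NOTCH1, NOTCH3 and JAG1) at an adjusted p-value under 0.05, and HEY1 was neither (limma on log2(signal + 1), Benjamini-Hochberg over 14215 genes). NOTCH3 rose most, 3.20-fold, and NRARP fell most, 3.43-fold. The treatment moved much of the transcriptome, with 35.4% of all tested genes lower and 35.3% higher, so that 8 called of 9 stands beside a background of 70.7%. When total counts replaced the size factors, 3 of the 9 genes were lower and 3 higher, beside 3955 lower and 6156 higher of all tested genes (5031 and 5012 with the size factors). The DMSO and erlotinib libraries did not overlap for 8 of the 9 genes, against 73.6% of all tested genes. Less RNA of a gene per cell and fewer cells that express it cannot be told apart in these bulk libraries.

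**Figure D1:**
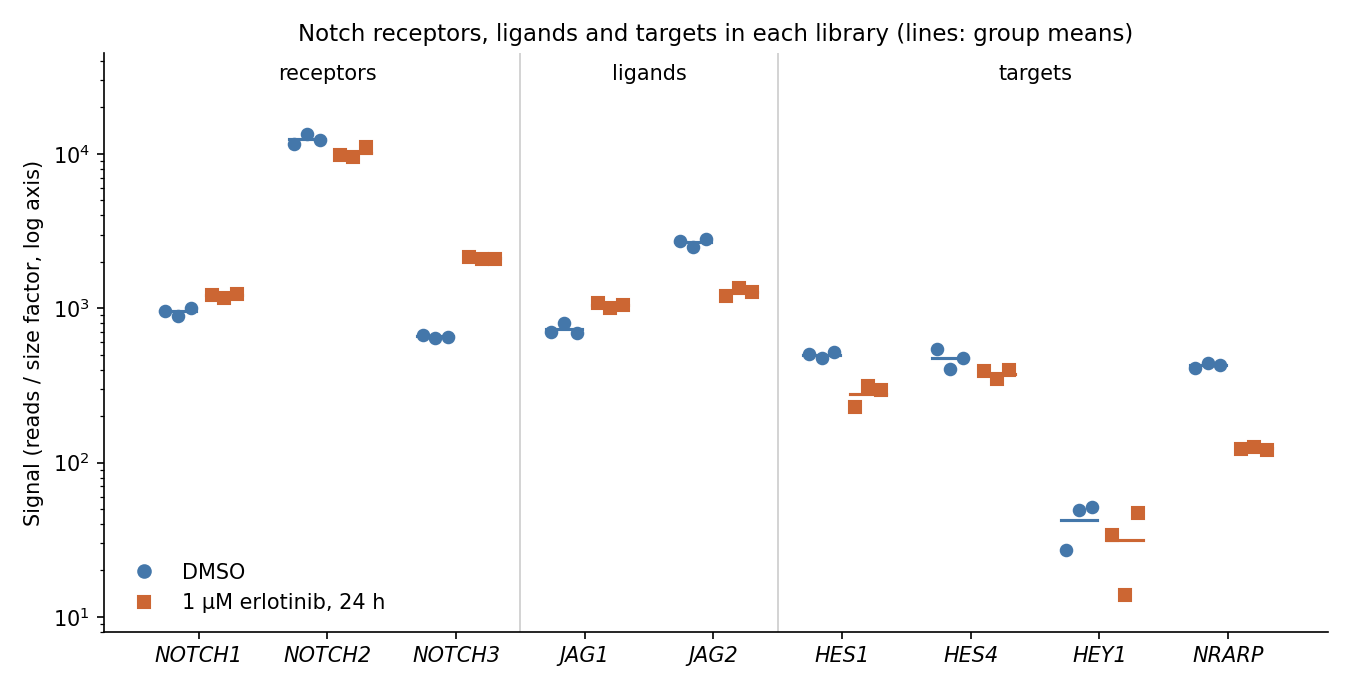
Signal of the 9 measured Notch genes in each library (vertical log axis, reads divided by the size factor), with circles for DMSO, squares for 1 μM erlotinib and a line at the mean of the 3 libraries. NOTCH3 lies between 642 and 674 in DMSO and between 2085 and 2142 with erlotinib, NRARP moves the opposite way, and HEY1 is the gene whose groups overlap.

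NOTCH3 (Entrez gene 4854, chromosome 19, 15159038 to 15200995 of GRCh38) is a receptor with a more restricted expression than NOTCH1 and NOTCH2. Its signal was 674, 642 and 654 in DMSO1 to DMSO3 and 2142, 2089 and 2085 in Erlo4 to Erlo6. Every erlotinib library was thus above every DMSO library, with little spread within a group. Its log2 fold change came to 1.68 (SE 0.08, 95% confidence interval 1.52 to 1.84, adjusted p = 8.9e-14, limma).
NOTCH1 (Entrez gene 4851, chromosome 9, 136494433 to 136546048), the receptor known from T-cell leukaemia, had a signal of 963, 894 and 1006 in DMSO and of 1222, 1162 and 1244 with erlotinib. The groups did not overlap, and the rise was small, 1.27-fold (log2 fold change 0.34, standard error 0.08, adjusted p = 0.0011, limma).
NOTCH2 (Entrez gene 4853, chromosome 1, 119911553 to 120069662) was the most abundant member per kb of exon. It had a signal of 11523, 13434 and 12382 in DMSO and of 9762, 9482 and 11139 with erlotinib, so the highest erlotinib library came close to the lowest DMSO library. NOTCH2 fell by 0.30 on the log2 scale (standard error 0.07, adjusted p = 0.0011, limma). Under scaling by total counts the log2 fold change of NOTCH2 was -0.12 (adjusted p = 0.17, limma).

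NOTCH2 has partial copies, the NOTCH2NL genes, to which 960 to 992 of the 11425 bases of its longest coding transcript aligned at an identity of 97.05% to 98.5%, all within the first 1007 bases. Reads from that stretch may be split between the genes or lost. The mean signal of the listed copies was 102 in DMSO and 115 with erlotinib for NOTCH2NLA, 48.5 and 66.6 for NOTCH2NLB, and 43.96 and 36.2 for NOTCH2NLR, with adjusted p-values between 0.11 and 0.45 (limma).
The miRNA genes MIR4673, MIR6795, MIR6870 and MIR6765, which overlap NOTCH1, NOTCH3, JAG1 and JAG2, had 0 reads in each library. LOC124902310, which overlaps NOTCH1, is not among the genes listed, so it has no value here. NALT1, a long non-coding RNA within 10 kb of NOTCH1, had a signal of at most 3.40 in DMSO and of 8.42 to 24.9 with erlotinib, and was too low to test. Of the other listed genes within 10 kb of NOTCH1, SEC16A had a signal of 4206 to 4586 in DMSO and of 3404 to 3932 with erlotinib. C9orf163 had 13 to 21.4 in DMSO and 15.0 to 32.3 with erlotinib, and MIR4674 had 0 and 0.99 to 5.62.

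JAG2 (Entrez gene 3714, chromosome 14, 105140995 to 105168776), a Jagged ligand, was the measured ligand with the highest level per kb of exon in DMSO. It had 2720, 2510 and 2788 in DMSO and 1205, 1348 and 1266 with erlotinib. All erlotinib libraries lay far below the DMSO libraries, and the fall was 2.10-fold (log2 fold change -1.07, standard error 0.08, adjusted p = 8.0e-11, limma).
JAG1 (Entrez gene 182, chromosome 20, 10637684 to 10673999), the other Jagged ligand, moved in the opposite direction. Its signal was 699, 802 and 690 in DMSO and 1087, 1002 and 1050 with erlotinib, without overlap. JAG1 rose 1.43-fold (log2 fold change 0.52, standard error 0.09, adjusted p = 3.3e-05, limma).
DLL1 (Entrez gene 28514, chromosome 6, 170282206 to 170291078), a Delta-like ligand, is listed at 0 in all 6 libraries, and its level cannot be read from this table. All of its longest coding transcript is also present, at an identity of 100%, on an alternate contig of the genome, and the authors counted uniquely mapped reads. Whether their genome included these contigs is not given in the sources used here. Of 696 protein-coding genes with a copy of this kind, 611 (87.8%) are listed at 0 in every library, against 2775 of 17935 genes (15.5%) without a copy. FAM120B, which overlaps DLL1 and has a copy as well, is also listed at 0, whereas PSMB1 and TBP, on the same chromosome and without a copy, reached 1950 and 423. The receptor NOTCH4 and the target HES5 are listed at 0 and have such copies too, so their levels are equally unknown.

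Of the 4 targets, NRARP, HES1 and HES4 were lower and HEY1 was not called. NRARP (Entrez gene 441478, chromosome 9, 137299631 to 137302271) encodes a short ankyrin-repeat protein that is induced by Notch and limits its signalling. Its signal was 410, 439 and 430 in DMSO and 123, 127 and 121 with erlotinib. The groups were far apart and each was tight. NRARP fell by 1.78 on the log2 scale (standard error 0.14, 95% confidence interval -2.06 to -1.498, adjusted p = 2.2e-10, limma).
HES1 (Entrez gene 3280, chromosome 3, 194136148 to 194138732), the repressor whose promoter holds TGGGAA at a pair of places, had a signal of 507, 473 and 517 in DMSO. With erlotinib it had 229, 315 and 297, all below the DMSO libraries, Erlo4 being the lowest. The fall was 1.79-fold (log2 fold change -0.84, standard error 0.13, adjusted p = 6.6e-06, limma).
HES4 (Entrez gene 57801, chromosome 1, 998964 to 1000097), a relative of HES1, had a signal of 542, 406 and 476 in DMSO and of 389, 346 and 395 with erlotinib. DMSO2 and Erlo6 nearly met, so the separation was narrow. Its log2 fold change came to -0.32 (SE 0.12, adjusted p = 0.023, limma). The call was lost without DMSO1 (adjusted p = 0.13), without DMSO3 (0.057) and without Erlo5 (0.10), with total-count scaling (0.29), and on the reads of 5 libraries with edgeR (0.11) or DESeq2 (0.15).
HEY1 (Entrez gene 23462, chromosome 8, 79764010 to 79767767), a repressor related to the HES proteins, had few reads, with 24, 53 and 48 reads in DMSO and 37, 14 and 50 reads with erlotinib. The groups overlapped, Erlo5 being the lowest library, and no change was detected (log2 fold change -0.52, 95% confidence interval -1.37 to 0.32, adjusted p = 0.26, limma).

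**Figure D2:**
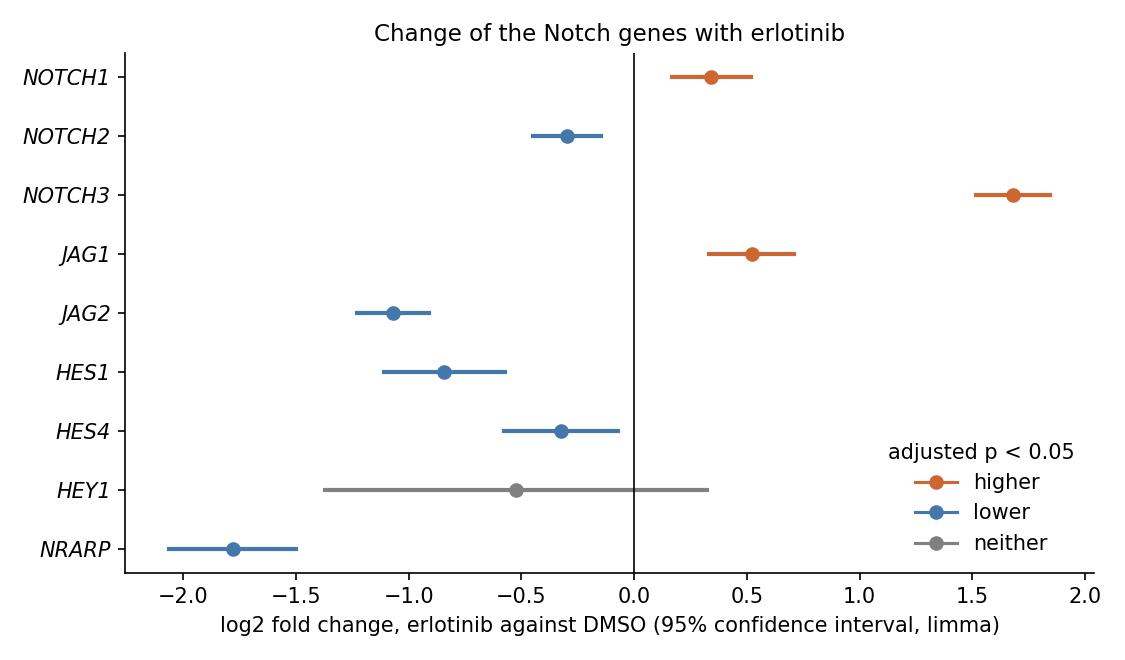
Log2 fold change with erlotinib against DMSO of the 9 measured Notch genes (horizontal axis), with limma's 95% confidence interval as a bar and colour for the call at an adjusted p-value under 0.05. The intervals of NOTCH3 (1.52 to 1.84) and NRARP (-2.06 to -1.498) lie farthest from 0, and that of HEY1 (-1.37 to 0.32) includes 0.

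To compare levels between genes, the signal was divided by the length of the exons of each gene, in kb. This length joins the exons of all GENCODE 44 transcripts of a gene, and the order depends on it. The coding part is 7065 of 9408 bases in NOTCH3 and 3714 of 6396 in JAG2, but 840 of 2059 in HES1 and 342 of 2641 in NRARP. The genes were not ranked by coding length, which would raise HES1 and NRARP relative to NOTCH3. In DMSO the order was NOTCH2 (743 ± 57.2, SD, n = 3), HES4 (425 ± 61.0), JAG2 (418 ± 22.7), HES1 (242 ± 11.3), NRARP (161 ± 5.78), JAG1 (78.6 ± 6.71), NOTCH1 (76.2 ± 4.499), NOTCH3 (69.8 ± 1.72) and HEY1 (7.77 ± 2.44). HES4 and JAG2 overlapped, as did JAG1 with NOTCH1 and NOTCH1 with NOTCH3, so these neighbours could not be ordered. With erlotinib NOTCH3 (224 ± 3.39, SD, n = 3) stood in position 3, after NOTCH2 (605 ± 53.0) and HES4 (337 ± 23.8), and above JAG2 (199 ± 11.2) and HES1 (136 ± 22.0). JAG1 (113 ± 4.597), which overlapped HES1, NOTCH1 (96.5 ± 3.38), NRARP (46.7 ± 1.15) and HEY1 (5.76 ± 3.03) followed. The aligner does not split reads across introns, so genes of many exons, such as the receptors, may be measured lower than genes of few exons, such as HES1 and NRARP.

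The make-up of the receptors and of the ligands was compared within each library, as the share of each gene in the summed signal per kb. NOTCH3 made up 8.56%, 7.24% and 7.82% of the receptor signal in DMSO and 25.1%, 25.2% and 22.5% with erlotinib, and the share of NOTCH2 went from 83.5% ± 1.499 to 65.3% ± 1.86 (SD, n = 3 each). The share of NOTCH1 was 8.60% ± 0.887 for DMSO and 10.4% ± 0.342 for erlotinib (SD, n = 3 each). The summed receptor signal per kb was 889 ± 52.6 (DMSO) and 925 ± 54.5 (erlotinib, SD, n = 3 each), which is a difference within the spread (exact two-sided permutation test, p = 0.50).
Among the Jagged and Delta-like ligands, JAG2 held 79.6% ± 1.51 in DMSO and 56.0% ± 2.91 with erlotinib, and JAG1 held 15.0% ± 1.88 and 31.7% ± 1.44 (SD, n = 3 each). DLL3, a divergent Delta-like protein, took 4.98% ± 0.766 and 9.85% ± 1.08, and DLL4 took 0.350% ± 0.319 and 2.41% ± 0.432 (SD, n = 3 each). The summed ligand signal per kb was 525 ± 21.5 (DMSO) and 355 ± 2.11 (erlotinib, SD, n = 3 each, exact two-sided permutation test, p = 0.10). For all 7 shares the groups did not overlap, with an exact two-sided permutation p of 0.10 for each share, also when adjusted over the 7, which is the smallest that 3 libraries against 3 allow. Without division by length the share of DLL3 differed by 1.77 percentage points, against 4.86 per kb. DLL1 and NOTCH4 could not be counted in these shares, and the non-canonical ligand DLK2 (38.9 per kb in DMSO and 59.4 with erlotinib) was not included in them.

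**Figure D3:**
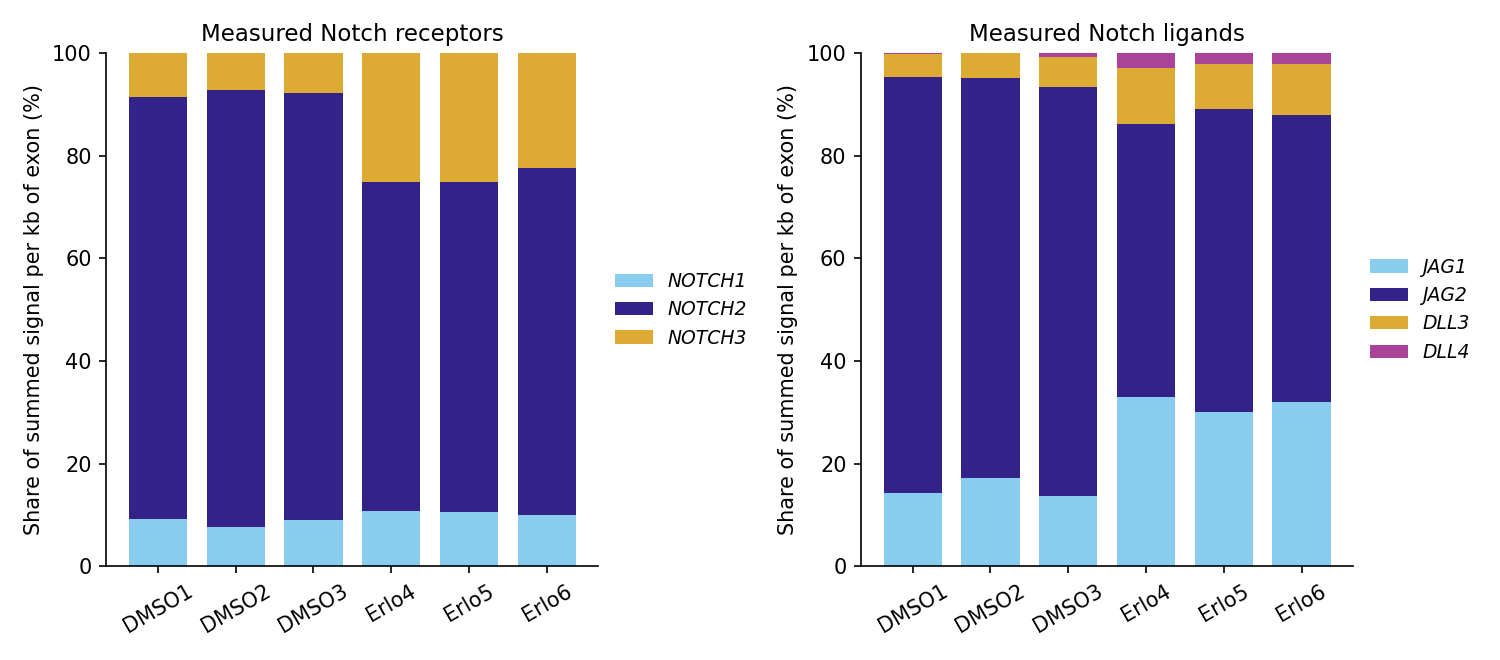
Share (vertical axis, percent) of the receptors NOTCH1 to NOTCH3, left, and the ligands JAG1, JAG2, DLL3 and DLL4, right, in the summed signal per kb of exon in each of the 6 libraries. The NOTCH3 segment is 7.24% to 8.56% in the DMSO libraries and 22.5% to 25.2% in the erlotinib libraries, and the JAG1 segment is about 15.0% against 31.7% on average.

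The rest of the pathway was described by 7 lists of 68 genes grouped by role, of which 59 had enough signal to test. Of these, 10 were lower (16.9%) and 25 were higher (42.4%), and the median of their log2 fold changes was 0.15, beside 35.4% lower, 35.3% higher and a median of 0.02 over all tested genes. With total-count scaling 7 of the 59 genes were lower and 35 higher. The background moved the same way, to 3955 lower and 6156 higher of all 14215 tested genes, with a median log2 fold change of 0.195.
The largest rise was that of LFNG, a Fringe enzyme that adds a sugar to Notch receptors and thereby alters their response to Jagged and Delta-like ligands. LFNG had a signal of 304, 258 and 317 in DMSO and of 2785, 2458 and 2634 with erlotinib. All erlotinib libraries were far above the DMSO libraries, an 8.96-fold rise (log2 fold change 3.16, standard error 0.10, adjusted p = 1.2e-16, limma). Another Fringe, RFNG, rose 2.44-fold from a mean of 369 (adjusted p = 9.2e-10, limma), and the means of MFNG were 86.7 and 86.8 (adjusted p = 0.94, limma). Of the 9 glycosyltransferases, 3 were higher and 2 lower. GXYLT2, of low signal, rose by 1.80 on the log2 scale, while GXYLT1, a xylosyltransferase, fell by 0.72 and POFUT1, which adds the fucose that Fringe extends, fell by 0.61 (adjusted p at most 0.0010, limma).

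Of RBPJ and 7 coactivators, 3 were higher and 1 lower. MAML3, a Mastermind-like coactivator, had a signal of 66.9, 55.7 and 85.6 in DMSO and of 462, 481 and 444 with erlotinib. It rose 6.68-fold without overlap (log2 fold change 2.74, standard error 0.17, adjusted p = 8.3e-12, limma). MAML2 rose 2.38-fold from a mean of 478 to 1138 (adjusted p = 1.4e-10, limma). MAML1, the most abundant of the Mastermind-like genes per kb of exon, had means of 3121 and 3098 (adjusted p = 0.89), and RBPJ itself had means of 4849 and 4430 (adjusted p = 0.10, and 0.025 without DMSO3, limma). SNW1, a splicing and transcription cofactor, fell by 0.30 on the log2 scale, although Erlo5 lay just above DMSO3 (adjusted p = 0.0078, limma), and its call was lost with total-count scaling (0.25) and without Erlo4 (0.060).
Among 12 tested corepressors, 4 were higher and 3 lower. TLE2 (log2 fold change 2.11) and AES (1.59), both of the Groucho family, rose most, and CTBP2 fell by 0.59 and RITA1, which exports RBPJ from the nucleus, fell by 0.58 (adjusted p at most 2.0e-06, limma).
Of the 9 proteases, 5 were higher and 0 lower. Among them were the γ-secretase subunits APH1B (log2 fold change 1.97), NCSTN (0.87) and APH1A (0.27) and FURIN (0.80), which cuts the receptors during their maturation. For each of these genes the adjusted p was 5.3e-04 or smaller (limma). ADAM10 and ADAM17, the proteases that cut the receptor after ligand binding, had log2 fold changes of 0.14 and 0.15 and adjusted p-values of 0.094 and 0.071 (limma). Both were called higher with total-count scaling (adjusted p = 8.0e-04 and 4.8e-04) and without DMSO2 (0.0014 and 0.028, limma).
Among the 16 genes of endocytosis and ubiquitin ligases, 6 were higher and 4 lower. DTX4 (log2 fold change 1.65), a Deltex ligase, and NEURL1 (1.51), a ligase that acts on ligands, rose most, and NEDD4 fell by 1.13 and ITCH fell by 0.41 (adjusted p at most 2.4e-05, limma).

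**Figure D4:**
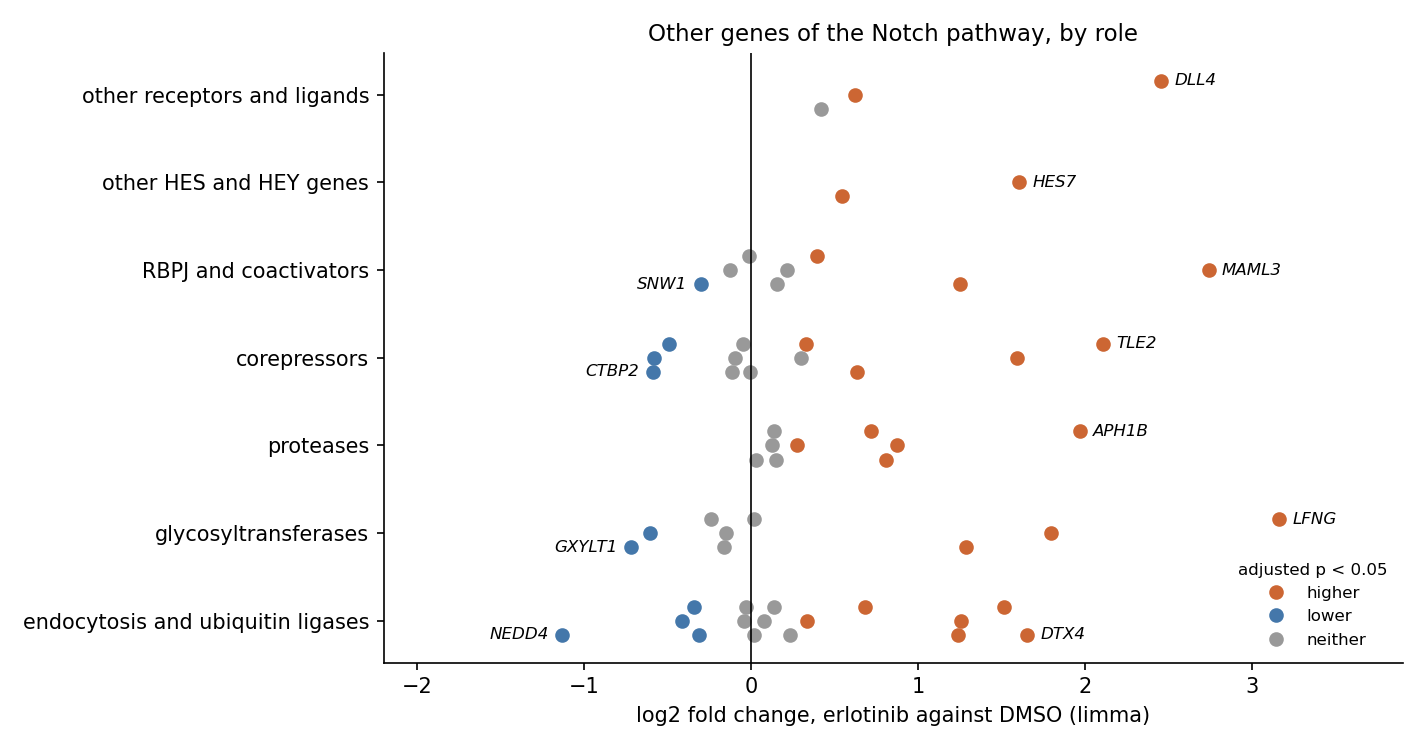
Log2 fold change with erlotinib against DMSO (horizontal axis) of the 59 tested genes in 7 lists of the Notch pathway (vertical axis), 1 point per gene, coloured by the call at an adjusted p-value under 0.05 and named where a called gene ends its list. LFNG (3.16) and MAML3 (2.74) lie farthest to the right and NEDD4 (-1.13) farthest to the left.

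Other ligands and targets of the family had low signal. DLL4, a ligand known from endothelial cells, had 6, 2 and 17 reads in DMSO and 53, 36 and 40 reads with erlotinib, without overlap (log2 fold change 2.45, standard error 0.57, adjusted p = 6.7e-04, limma). The log2 fold change of DLL4 was 1.75 without DMSO2, 3.13 without DMSO3 and 1.502 with a pseudocount of 10, and it was called in each. DLL4 reached the minimum mean signal of 10 only through the erlotinib libraries (means of 8.95 and 40.7), so its call is not independent of that filter, and it was not tested when 10 reads were required in every library. The mean signal of DLL3 was 68.6 ± 12.9 and 91.5 ± 9.69 (SD, n = 3 each; adjusted p = 0.10, limma), and it was called higher with total-count scaling (0.025) and without DMSO3 (0.044), and DLK2, a non-canonical ligand, rose by 0.62 on the log2 scale from a mean of 87.1 (adjusted p = 0.0089, limma, and 0.053 with DESeq2 on the reads of 5 libraries). DLK1 had 2 reads in Erlo6 and 0 in the other libraries.
HES7, known from the segmentation clock, had 12, 17 and 16 reads in DMSO and 61, 44 and 51 reads with erlotinib (log2 fold change 1.602, standard error 0.35, adjusted p = 3.9e-04, limma). HES6, which opposes HES1, had a log2 fold change of 0.54 (adjusted p = 0.042, limma), with Erlo6 below DMSO3, and its call was lost without the filter on low signal (0.082), without DMSO1 (0.14), DMSO2 (0.089), Erlo4 (0.13) or Erlo5 (0.095) and on the reads of 5 libraries with edgeR (0.10) or DESeq2 (0.17). HES2 and HEYL had too few reads to test, with 0, 2 and 0 reads of HES2 in DMSO and 10, 10 and 15 with erlotinib, and at most 12 reads of HEYL in a library. HES3 and HEY2, which have no copy on an alternate contig, had 0 reads in each library, which allows a signal of up to 2.77 to 3.40 per library.

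Markers of other cell types were read beside these genes, because Notch ligands and targets mark particular airway and stromal cells. Of 8 ciliated-cell markers, 5 were tested, RFX3 and CFAP43 were higher and MCIDAS was lower, FOXJ1 and DNAI1 passed the filter on low signal only through the erlotinib libraries, where they were high, and the summed signal was 502 to 567 in DMSO and 1056 to 1162 with erlotinib. The marker with the most signal was RFX3 (mean 332 in DMSO and 729 with erlotinib), FOXJ1 had at most 2 reads in a DMSO library and 146 to 172 with erlotinib, and GMNC, DNAH9 and TEKT1 had at most 4 reads in any library. Of 6 secretory and goblet cell markers, 3 were tested, with adjusted p-values between 0.080 and 0.69 (limma), and SCGB1A1 and SCGB3A2 were at 0 (summed signal 963 to 1126 in DMSO and 892 to 1136 with erlotinib, MUC5B the most abundant). Of 4 basal cell markers, 3 were tested, with adjusted p-values between 0.85 and 0.98 (limma; summed signal 149.7 to 269 and 178 to 257, KRT5 the most abundant, NGFR at most 8 reads).
Neuroendocrine markers, which HES1 is known to repress, stayed near 0, with INSM1 and CALCA at 0 and CHGA at 0 with a copy on an alternate contig. The most abundant, SYP, had 15, 6 and 2 reads in DMSO and 29, 6 and 10 with erlotinib and also passed the filter only through the erlotinib libraries, and the list summed to 5.57 to 17.0 in DMSO and 5.94 to 30.45 with erlotinib. Of 5 endothelial markers, 2 were tested, of which VWF passed the filter only through the erlotinib libraries (3, 1 and 7 reads in DMSO and 38, 26 and 23 with erlotinib) and PECAM1 was not called, and KDR and TEK had at most 4 reads in a library (summed signal 15.8 to 34.03 in DMSO and 46.5 to 58.1 with erlotinib). Of 5 fibroblast markers only COL1A1 had enough signal, and it was higher (log2 fold change 1.47, adjusted p = 6.8e-07, limma), LUM had 2, 4 and 6 reads in DMSO and 10, 10 and 20 with erlotinib, too few to test, and COL1A2, PDGFRB and DCN had at most 5 reads (summed signal 71.5 to 107 and 215 to 259). Of 8 genes of lung adenocarcinoma epithelium, 5 were lower (KRT7, KRT8, KRT18, KRT19 and EGFR) and the lung transcription factor NKX2-1 was higher (log2 fold change 1.53, adjusted p = 5.2e-14, limma), and the summed signal, most of which was keratin, was 340053 to 367593 in DMSO and 237888 to 250029 with erlotinib. The part of these markers in the changes of the Notch genes was not tested.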

How the data were processed

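Poly(A)-selected RNA of 6 HCC827 libraries was sequenced in paired ends. Per the submitters' processing notes and the methods of the study, reads were aligned to GRCh38 with Bowtie2 2.3.4, uniquely mapped reads were counted per gene with featureCounts 1.6.3 and counts were normalised with DESeq2 1.18.1. The table deposited by the authors holds signal, reads divided by 1 size factor per library (0.882 to 1.08). Within a tolerance of 0.001, 100% of values came out as whole reads in each library. Whether counting used strand is not given in the sources used here.

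The 14215 genes whose mean signal reached 10 were tested with limma 3.58.1 (R 4.3.3) on log2(signal + 1), with Benjamini-Hochberg adjustment and a threshold of 0.05. Log2 fold changes, their standard errors and the folds taken from them are on that scale and understate the change of low genes. The fit was also run on simulated reads with known size factors and few changed genes. That run does not cover data in which much of the transcriptome moves. Shares were compared with an exact permutation test. Floors are 3 reads and cover counting error only. Copies on the 261 alternate contigs of GRCh38 were sought with minimap2 (at least 90% of the longest coding transcript of GENCODE 44 at an identity of at least 97%). Libraries of 1 condition were not copies of each other, since their differences exceeded sampling noise.

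The members and lists were chosen with earlier results of these data known. All members were named, and NOTCH4, DLL3 and DLL4 by level. In each pathway list the called genes with the largest changes (up to 2 in each direction) and any gene of a list of 5 or fewer were named. So were copies of NOTCH2, genes that overlap a member and genes within 10 kb of NOTCH1. In each marker list the most abundant gene and those at 0 were named. Genes within 10 kb of the other members are not reported here unless they overlap them. All other named genes (such as RBPJ, MAML1, RFNG, MFNG, APH1A, FURIN, ADAM10, ADAM17, HES2, HEYL and the remaining cell type markers) were chosen for their roles after their values were seen. Values of some listed genes are not reported here. Alternatives were other scalings, pseudocounts (0.1 and 10), filters (none, or 10 reads in every library), a threshold of 0.01, leaving out each library, and edgeR 4.0.16 and DESeq2 1.42.0 on 5 libraries.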

Additional observations from a re-analysis of the deposited data

How the results depend on the processing

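Over 15 alternatives, the 9 Notch genes kept their direction in all 135 comparisons and their side of the threshold in 127, the exceptions being HES4 (7) and NOTCH2 (1). Many of these directions were fixed in advance. The other filters and threshold leave the fold change as it is. Another pseudocount or leaving out 1 library cannot reverse the 8 genes whose groups do not overlap. The number of members higher was 3 throughout and the number lower was 3 to 5, and leaving out 1 library gave 4 to 5. With total-count scaling the number lower was 3, since NOTCH2 (log2 fold change -0.12, adjusted p = 0.17, limma) and HES4 (-0.15, 0.29) were no longer called. That scaling moved the median of all tested genes from 0.017 to 0.195, and relative to the median NOTCH2 stood at -0.32 with the size factors and -0.31 with total counts, and HES4 at -0.34 in both. Among the pathway genes, 841 of 881 comparisons kept their side of the threshold, 36 of these with a change of sign in a gene called under neither setting, and MAML1 (0.17, adjusted p = 0.033) and NCOR1 (0.17, 0.031) reversed with total-count scaling (limma). NOTCH3 ranged from 1.66 to 1.86 and NRARP from -1.81 to -1.601. No sign of the 7 shares changed over 8 alternatives. Leaving out 1 library could not change a sign, because the groups did not overlap, so only the other length settings bear on this. Over the alternatives, the difference for NOTCH3 was 11.02 to 17.3 percentage points. That for JAG1 was 15.96 to 21.7 and that for DLL3 1.77 to 5.40. The planned edgeR and DESeq2 fits on all 6 libraries were not run, because the size factor of Erlo5 (1.01) is so close to 1 that its reads were left out of count tests, although its values were whole multiples of 1 read like those of the other libraries. On the other 5 libraries, an alternative chosen after seeing the data, edgeR called 4682 genes lower and 4757 higher and DESeq2 4602 and 4421, and each called 4 members lower and 3 higher. No paired analysis was possible because the erlotinib columns carry no number that matches a DMSO column. Genes with a mean signal under 10 were not tested, and of the pathway genes tested, DLL4 passed that filter only through the erlotinib libraries.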
